A study of Mus musculus with 6 samples.

Results

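The Activin ChIP-Seq library of mouse embryonic stem (ES) cells was compared with its own input library at the 5094 positions that the authors listed as phospho-Smad2 (pSmad2) peaks for this treatment, of 17276 listed for the 3 treatments of the study. A window of 250 bp to each side was laid around each position, tags were counted once per position and strand, counts were scaled by the total tags of each library, and the windows were ranked by ChIP over input. E14 TG2A ES cells were held for 6 h in the inhibitor SB-431542 at 10 µM and then for 18 h in KSR media with Activin at 25 ng/ml. The cells of the other treatments had the same 6 h in SB-431542, followed by 18 h either in DMSO at a dilution of 1 in 5000, the control, or in SB-431542 at 10 µM. The latter is called SB here. For every treatment there is a single ChIP library with a single input from the same line, so no value has a replicate check and intervals cover counting error only. The listed positions were called on the same Activin libraries, so Activin ChIP over Activin input is given as a description, with no test. The DMSO and SB libraries played no part in the choice or the ranking of the windows and were tested.

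Activin and Nodal bind type II and type I receptor kinases, which phosphorylate Smad2 at its C terminus. The phosphorylated protein joins Smad4, enters the nucleus and is brought to DNA together with partner factors such as the forkhead protein Foxh1. SB-431542 blocks the type I receptor kinases. The pathway is known for switching on its own ligand Nodal and its own inhibitors, among them the secreted Lefty proteins and the inhibitory Smad7, and in ES cells it is active through ligands that the cells make themselves. The short Smad element is CAGAC, and the Foxh1 motif used here is AATCCACA.

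The sequences below show the centres of some of the strongest windows, 121 bp each on the plus strand of mm9, with every match to CAGAC or AATCCACA on either strand in capitals (GTCTG and TGTGGATT are the reverse complements). The first 3 hold the Foxh1 motif and are those to which the results below return.
Lefty1 upstream, rank 4, chr1:182854954-182855074: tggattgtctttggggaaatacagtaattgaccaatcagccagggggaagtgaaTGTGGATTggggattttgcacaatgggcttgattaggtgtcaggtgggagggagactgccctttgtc
Lefty2 upstream, rank 6, chr1:182818973-182819093: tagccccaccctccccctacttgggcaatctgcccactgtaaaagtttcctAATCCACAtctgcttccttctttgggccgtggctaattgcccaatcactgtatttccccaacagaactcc
Ski intron, rank 70, chr4:154564023-154564143: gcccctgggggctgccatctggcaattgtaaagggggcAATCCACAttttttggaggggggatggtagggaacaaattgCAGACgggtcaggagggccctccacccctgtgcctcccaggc
The next 3 hold CAGAC without the Foxh1 motif.
Tdgf1 upstream, rank 5, chr9:110850047-110850167: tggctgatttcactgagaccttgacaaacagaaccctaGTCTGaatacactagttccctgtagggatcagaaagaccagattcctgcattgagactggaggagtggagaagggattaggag
Radil intron, rank 10, chr5:143022551-143022671: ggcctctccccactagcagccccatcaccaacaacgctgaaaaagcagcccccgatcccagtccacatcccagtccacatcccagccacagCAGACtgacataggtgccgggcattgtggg
Pmepa1 intron, rank 111, chr2:173064170-173064290: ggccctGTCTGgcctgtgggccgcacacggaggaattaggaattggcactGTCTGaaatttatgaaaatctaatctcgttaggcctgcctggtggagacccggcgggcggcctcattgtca
The last holds neither and consists largely of a short repeated unit, shown because it stands among the strongest 10 windows.
Chst10 upstream, rank 7, chr1:38973366-38973486: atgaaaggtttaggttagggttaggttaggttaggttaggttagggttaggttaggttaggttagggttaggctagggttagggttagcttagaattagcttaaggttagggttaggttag

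The Activin ChIP library held 13148559 tags, of which 10537724 were at different positions, and its input held 11546247, of which 10895120 were at different positions. The other 4 libraries held between 7805150 and 11913742 tags at different positions. A genome window of this length received on average 2.07 ChIP and 2.14 input tags, so most input counts in the listed windows were small, with a median of 4 tags beside a median of 16 ChIP tags. The listed windows held 0.993% of the ChIP tags and 0.244% of the input tags.

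The ratio of ChIP to input, with 1 tag added to each, had a median of 3.58, with 2.64 at the 25th and 5.17 at the 75th percentile. It was at least 2-fold in 4761 windows, at least 4-fold in 2054 or 40.3%, at least 8-fold in 423, at least 16-fold in 67 and at least 32-fold in 10. Of the 5100775 windows of the same length that tile the genome, 3.20% passed 4-fold on the same scale, and 0.113% passed 4-fold with at least 10 ChIP tags, as did 1941 or 38.1% of the listed windows. The shares were 8.30% and 0.107% at 8-fold. The list was called for exactly this excess, so nothing is read from the difference. The lower limit of the 95% interval of the ratio (exact binomial, counting error only) lay above 1 in 3985 windows and did not in the other 1109. In 3 windows the ChIP was below the input, and the lowest ratio was 0.910.

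**Figure D1:**
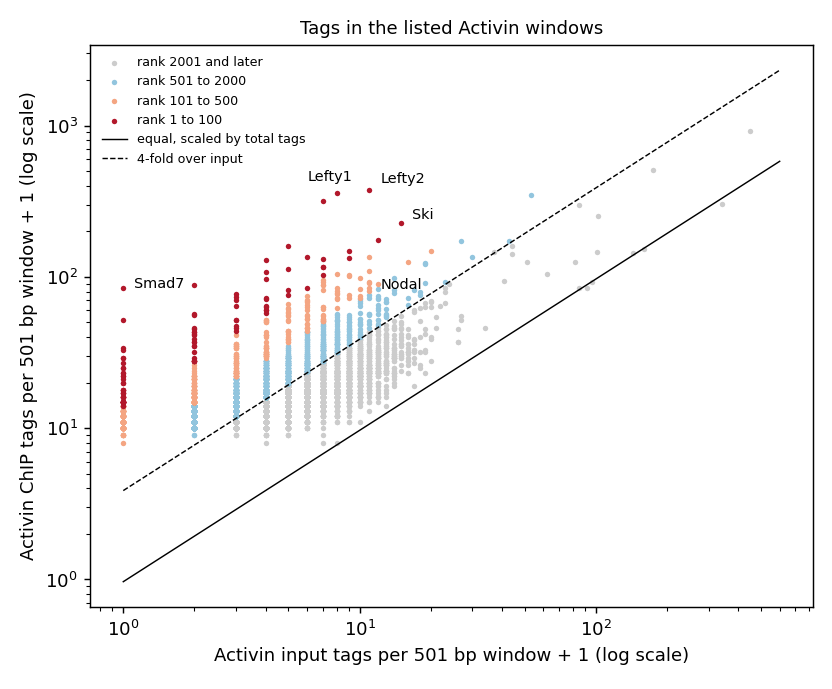
Activin ChIP tags against Activin input tags for each of the 5094 listed windows, both with 1 tag added and on log scales, coloured by rank; the solid line marks equal scaled counts and the dashed line 4-fold. Lefty1 and Lefty2 stand at over 300 ChIP tags with few input tags, while many of the other strongest windows lie at the left edge, where the input held 0 or 1 tag.

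Low input counts decided much of the ranking. The input held 0 tags in 163 windows, all of them in the strongest 500 and 43 of them in the strongest 100, and 3 tags or fewer in 83 of the strongest 100. With the windows without input tags set at the floor of 3 tags, the median ratio of the strongest 100 was 15.1 in place of 17.9, that of the strongest 500 was 8.27 in place of 10.3, and the number at least 4-fold was 1957. The strongest 500 end at a ratio of 7.50, and the next window had 7.41. Some high ratios rest on few tags: in the 400 windows after the strongest 100 the median window held 17 ChIP and 1 input tag. At the other end, 312 windows had over 5 times the mean input of the genome and a median ratio of 2.33, and 12 of the weakest 20 windows were among them.

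The window ranked first with 1 tag added lay 6.49 kb upstream of Smad7, which encodes the inhibitory Smad that turns the receptors off. It held 84 ChIP tags and 0 input tags, at least 28.9-fold higher against the floor of 3 input tags with the ChIP count taken as exact. That bound lies below the ratios of Lefty1 (46.1), Tdgf1 (45.5), Lefty2 (35.2) and Radil (33.1), which were not set at a floor. The lower limit of its interval was 23.0. This was below the 25.3 of Lefty1 at rank 4 and above Lefty2 (20.8), Radil (15.7) and Tdgf1 (15.7). The first rank thus rests on the absence of input tags, while by the lower limit Smad7 stayed above the last 3 of these. In DMSO the same window held 62 ChIP and 6 input tags, and in SB 8 and 4. The ratio was thus 11.0 in DMSO (95% interval 5.50 to 35.9) and 2.26 in SB (0.672 to 11.4). Activin and DMSO were high and SB was not distinguishable from its input.

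Lefty1 and Lefty2 encode secreted inhibitors of Nodal and lie close to each other on chromosome 1. Of the strongest 500 windows, 3 lay within 45.0 kb there, at ranks 4, 6 and 26. The window 10.1 kb upstream of Lefty1 (chr1:182854764-182855264) held 356 ChIP and 7 input tags with Activin, 256 and 12 with DMSO and 21 and 7 with SB. The window 4.21 kb upstream of Lefty2 (chr1:182818783-182819283) held 374 and 10 with Activin, 233 and 6 with DMSO and 13 and 6 with SB. The window 1.15 kb upstream of Lefty1 (chr1:182863758-182864258) held 135 and 5, 93 and 6, and 12 and 10. At the Lefty2 window the ratio was 35.2 in Activin (20.8 to 81.3) and 41.0 in DMSO (21.5 to 131), so the intervals overlapped. At the first Lefty1 window the SB ratio was still 3.45 (1.54 to 10.5), above 1.

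Tdgf1 encodes Cripto, the coreceptor that Nodal needs. A window 1.45 kb upstream of it (chr9:110849857-110850357, rank 5) held 87 ChIP and 1 input tag with Activin, 60 and 8 with DMSO and 13 and 5 with SB. Radil, an effector of the Rap GTPase, had an intronic window (chr5:143022361-143022861, rank 10) with 159 and 4, 67 and 9, and 9 and 3 tags. Epha2, an ephrin receptor, had a window 16.5 kb upstream (chr4:140840365-140840865, rank 15) with 107 and 3, 77 and 11, and 15 and 3 tags, and an intron of Immp2l (chr12:42830684-42831184, rank 17) held 76 and 2, 64 and 7, and 12 and 6. In all 4 windows the ChIP count was highest with Activin and lowest with SB, in libraries that differ in total tags. The windows were chosen by their Activin ChIP, which favours a high Activin count. Activin against DMSO or SB was therefore not tested.

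A second kind of window among the strongest 20 was about as high in SB as in DMSO. The window ranked second with 1 tag added lay at the replication-dependent histone gene Hist1h3g (chr13:23627470-23627970), with 51 ChIP tags and 0 input tags in Activin, at least 17.6-fold higher, 47 and 2 in DMSO, and 55 and 2 in SB. The lower limit of its interval was 13.8. That limit lay below those of Lefty1 at rank 4 (25.3), Lefty2 (20.8), Radil (15.7) and Tdgf1 (15.7). At Epha2 the ratio was 27.9 and the lower limit, 12.3, was below that of Hist1h3g. At Hist2h3c1 (chr3:96051159-96051659, rank 14) the counts were 55 and 1, 55 and 4, and 42 and 1. Hspa1b, a heat shock chaperone gene, had a window 6.64 kb downstream (chr17:35086495-35086995, rank 20) with 73 and 2, 78 and 15, and 69 and 9. At the start of Rpl31, a ribosomal protein gene (chr1:39425097-39425597, rank 16), they were 26 and 0, 20 and 6, and 21 and 6. The repeated sequence upstream of Chst10 belongs here too, with 33 and 0, 21 and 5, and 25 and 5.

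Further strong windows held fewer Activin ChIP tags than those at Smad7, Lefty1, Lefty2, Tdgf1, Radil, Epha2 and Immp2l. In Activin they held 32 ChIP tags beside Cntn5 (203 kb away), 28 beside Il7 (392 kb away), 28 beside Serpini1, 24 beside Grik2 (1.47 Mb away) and 24 beside Slco1b2, each with 0 input tags. Against the floor, with the ChIP count taken as exact, these were at least 11.0-fold, 9.65-fold, 9.65-fold, 8.27-fold and 8.27-fold higher. The lower limits of their intervals were smaller, at 8.46, 7.34, 7.34, 6.22 and 6.22. An exon of Sulf1, a sulfatase gene, held 56 ChIP tags and 1 input tag. The DMSO and SB ChIP tags were 13 and 3 beside Cntn5, 25 and 4 beside Il7, and 23 and 8 beside Serpini1. They were 14 and 6 beside Grik2, 11 and 4 beside Slco1b2, and 26 and 9 at Sulf1. Cntn5, Il7 and Grik2 are named only as the nearest coding gene.

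**Figure D2:**
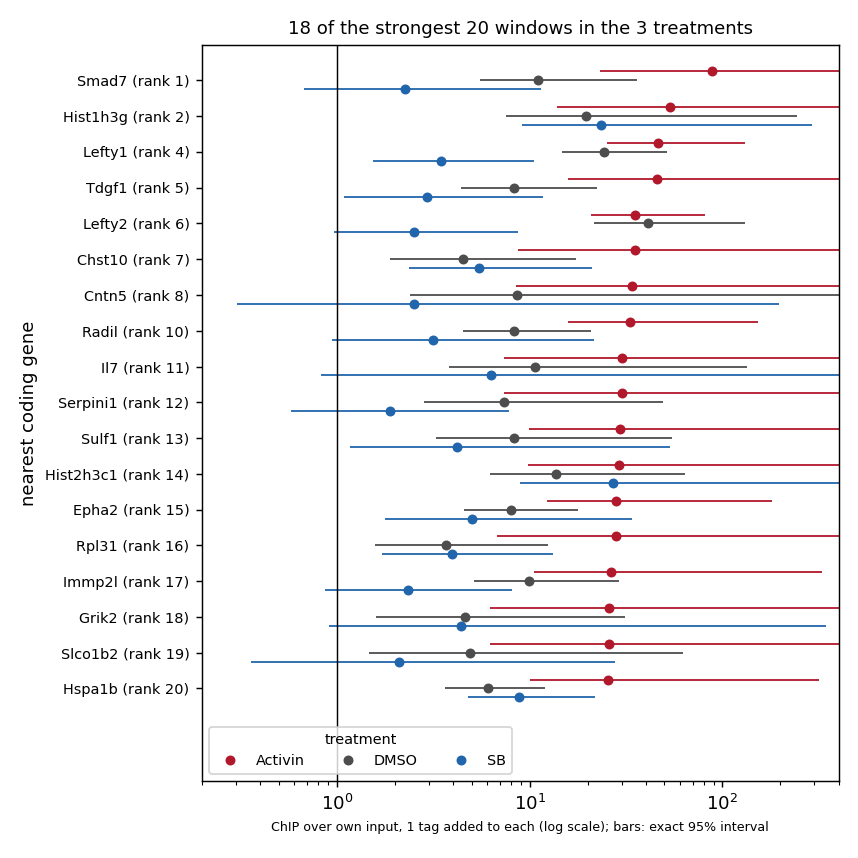
ChIP over own input (log scale, 1 tag added to each library) in Activin, DMSO and SB for 18 of the strongest 20 windows, named by the nearest coding gene; bars are exact 95% intervals from counting error and end at the edges of the plot. The SB points of Smad7 and Lefty2 lie at 2.26 and 2.51, and those of Hist1h3g and Hist2h3c1 at 23.4 and 27.0.

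The DMSO and SB libraries asked whether the order of the windows reflects more than the tags it was made from. DMSO ChIP exceeded DMSO input (one-sided exact binomial test, Benjamini-Hochberg adjusted p under 0.05 over the 5094 windows) in 33.6% of all windows, and in 82 of the strongest 100, 196 of the next 400, 560 of the next 1500 and 873 of the remaining 3094. SB ChIP exceeded SB input in 23.8% of all windows, and in 48, 105, 392 and 668 of the same classes. For DMSO the share called was 82.0% (95% interval 73.0 to 89.0) in the strongest 100 and 28.2% (26.6 to 29.8) in the lowest class, and for SB it was 48.0% (37.9 to 58.2) and 21.6% (20.2 to 23.1). The median ratios of the 4 classes were 17.9, 9.82, 5.17 and 2.84 with Activin. They were 7.51, 3.23, 2.30 and 1.91 with DMSO and 3.71, 2.01, 1.88 and 1.82 with SB. The Activin medians follow from the ranking, and those of the other treatments were read in libraries the ranking did not use.

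Neither library passed the test in 15 of the strongest 100 and in 211 of the strongest 500 windows. These 211 had the same median Activin ratio, 10.3, as the strongest 500 together, with a median of 13 ChIP tags in place of 20. Of the strongest 100 windows, 37 passed in DMSO and not in SB, 45 in both, and 3 in SB alone. Of the strongest 500 these numbers were 136, 142 and 11. The same split over all listed windows is not given here, so nothing is read from these numbers about the strongest windows. The difference between DMSO and SB was tested on its own.

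DMSO ChIP was higher than SB ChIP (two-sided exact binomial test given total tags, adjusted p under 0.05 over all windows) in 1.83% of the listed windows, and SB was higher in 0.569%. In the strongest 100 windows, 27 were higher in DMSO and 0 in SB. The 27 became 16 with 500 bp each side of the position and 17 at an adjusted p under 0.001, and lay between 16 and 38 over 13 alternatives. In the next 400 the numbers were 29 and 3, in the next 1500 they were 28 and 7, and in the last class 9 and 19. The median window held 33 DMSO ChIP tags in the strongest 100 and 11, 10 and 11 in the later classes. Fewer tags make a call less likely, so these numbers do not compare the size of the difference between classes. By this exact test DMSO was higher than SB by 13.4-fold at Lefty2 (adjusted p = 4.423e-40) and by 9.39-fold and 5.81-fold at the Lefty1 windows (7.647e-39 and 4.373e-10). At Smad7 the fold was 5.62 (1.942e-06), at Radil 5.46 (7.526e-07), at Immp2l 4.02 (5.053e-05), at Epha2 3.92 (6.397e-06) and at Tdgf1 3.50 (0.0004163), all by the same exact test. Beside Il7 it was 4.18 (0.04153, exact test), while the windows named by Cntn5, Serpini1, Sulf1, Grik2 and Slco1b2 did not pass. With 1 library each, these compare libraries and not cultures.

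At the histone, Rpl31, Hspa1b and Chst10 windows of the strongest 20, DMSO over SB was between 0.680 and 1.05 and did not pass. The 3 windows of the strongest 500 that were higher in SB lay at Hist1h1a, Slc35b2 and Sox2. The ratio of the DMSO to the SB ChIP library over unlisted genome windows changed with GC content by up to 2.40-fold, and with the library ratio measured by GC content the number higher in SB was 0 and the number higher in DMSO was 56. With all repeated tags kept, the number higher in SB was 39 and that higher in DMSO 66.

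**Figure D3:**
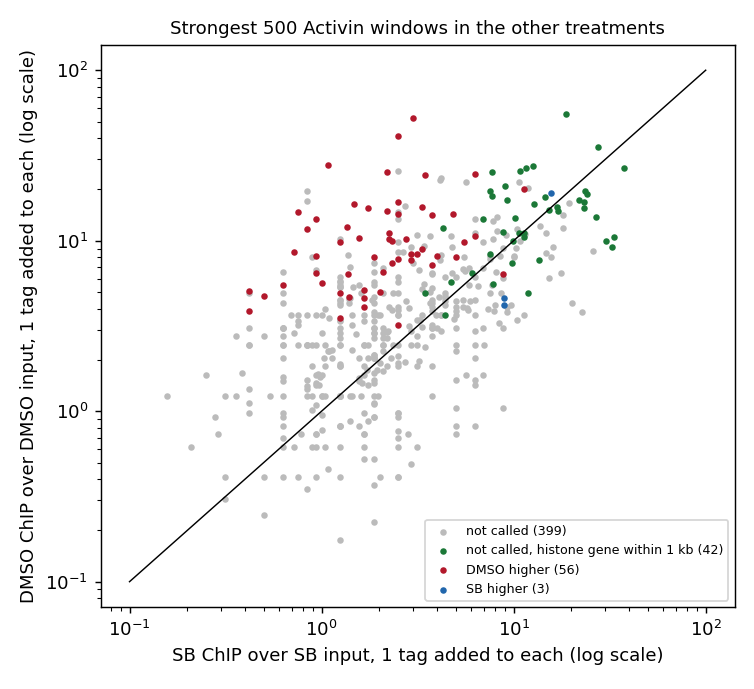
DMSO ChIP over DMSO input against SB ChIP over SB input for the strongest 500 Activin windows, 1 tag added to each library and both axes on log scales; the line marks equal ratios. Of the 56 windows higher in DMSO, 55 lie above the line and 50 below 5 on the SB axis, and Eif2c1, with ratios of 6.36 and 8.78, lies below the line. The 42 windows at histone genes that were not called lie on both sides of the line. Hist1h4d is at 9.20 in DMSO and 32.6 in SB, Hist1h2ad at 11.9 and 4.26, and Hist1h2bp at 4.91 and 3.45.

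Histone and ribosomal protein genes were grouped after the ranking was seen, so their numbers are a description. Windows within 1 kb of one of 79 histone genes made up 17 of the strongest 100, 43 of the strongest 500 and 65 of all 5094. In the strongest 500 their median ratios were 12.4 with Activin, 14.9 with DMSO and 11.6 with SB, and 0 of the 43 were higher in DMSO. The lowest SB ratio among them was 3.45 and the highest 37.6. Windows at 83 ribosomal protein genes numbered 3, 15 and 121, and those in the strongest 500 had medians of 9.30, 4.17 and 6.27. Histone genes of a family are near copies of each other, and tags that fit several copies could be placed at any of them, so the single histone windows are uncertain.

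Runs of 3 or more of the strongest 500 windows with gaps of at most 50 kb were found at 8 places. Histone clusters held 5 of them, with 14 windows over 90.7 kb, 10 over 65.8 kb, 9 over 71.0 kb and 4 over 7.33 kb on chromosome 13 and 5 over 53.3 kb on chromosome 3. The others were the Lefty1 and Lefty2 locus with 3, Hspa8 with 3 over 5.09 kb, and Rps15a with Arl6ip1 with 3 over 15.2 kb. All 3 Lefty windows were higher in DMSO than in SB, and none of the windows of the other runs was.

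The genes of the pathway were read from 6 lists, by whether a listed window lay within 10 kb of the gene body. Over all 22350 protein-coding genes this was so for 18.9%, for 8.95% with a window of at least 4-fold, and for 2.40% with one of the strongest 500. Among 12 ligands, coreceptors and extracellular inhibitors the numbers were 7, 5 and 5. Among 11 feedback inhibitors and corepressors they were 10, 8 and 5, and among 9 receptors, Smads and partners 1, 1 and 0. Of the mesendoderm regulators T, Eomes, Mixl1, Gsc, Foxa2 and Sox17 had no window, and Fgf8 and Otx2 ranked 1811 and 1720. Of 16 pluripotency factors it was so for 11, 7 and 2, and of 6 target genes of BMP, the Id and Msx genes, 0 in each case.

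Among the ligands, Nodal had an intronic window (chr10:60881777-60882277, rank 288) with 108 ChIP and 10 input tags with Activin, 65 and 9 with DMSO and 18 and 5 with SB, and DMSO was 2.79-fold higher than SB (adjusted p = 0.002441 by the exact test). Gdf3, a relative of Nodal that shares its coreceptor, had a window in an intron (chr6:122558093-122558593, rank 63) with 15 and 0, 16 and 4, and 6 and 6 tags. It was at least 5.17-fold higher in Activin against the floor, with a lower limit of its interval of 3.71. DMSO and SB were not distinguishable there. Gdf1 ranked 2424 and Fst, which encodes the Activin trap follistatin, 2147, the latter with 14 and 3 tags in Activin. The Gdf1 window went the other way from Nodal, with 63 ChIP tags in DMSO and 91 in SB. SB was higher there, with DMSO at 0.559 of SB (adjusted p = 0.02513, exact test). Inhba, Inhbb, Cfc1, Fstl3 and Cer1 had no window. The strongest sites of this list were thus at Tdgf1 and the Lefty genes.

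Among the inhibitors, Ski, a corepressor that binds Smads, had an intronic window (chr4:154563833-154564333, rank 70) with 226 ChIP and 14 input tags with Activin, 152 and 12 with DMSO and 26 and 6 with SB. DMSO was 4.55-fold higher than SB (adjusted p = 3.313e-14, exact test), while the SB ratio of 4.84 (2.19 to 16.1) was still above 1. Pmepa1, which keeps Smads from the receptor, had an intronic window (chr2:173063980-173064480, rank 111) with 40 and 2, 30 and 7, and 3 and 9 tags, 6.23-fold higher in DMSO than in SB (adjusted p = 0.00235, exact test). Ldlrad4, a relative of Pmepa1 named D18Ertd653e in the annotation, had one at rank 433 with 22 and 2, 24 and 5, and 3 and 2 tags. Smurf2, a ubiquitin ligase of the receptors, had an exonic window at rank 75 that rested on 14 Activin ChIP tags and 0 input tags, with 4 and 3 in DMSO and 5 and 3 in SB, neither above its input. Skil, Tgif1, Smad6, Tgif2 and Smurf1 ranked between 917 and 4544, and Bambi had no window. Of these, Skil was 3.125-fold higher in DMSO than in SB (adjusted p = 0.04355, exact test), and the others were not called.

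Sox2 and Utf1 were the pluripotency factors in the strongest 500. The Sox2 window (chr3:34549712-34550212, rank 373) held 90 ChIP and 10 input tags with Activin, 64 and 18 with DMSO and 99 and 13 with SB. SB was higher than DMSO there, with DMSO at 0.522 of SB (adjusted p = 0.004505, exact test), a call that was lost when the library ratio was measured by GC content. The Utf1 window (chr7:147131393-147131893, rank 436) held 22 and 2, 29 and 9, and 10 and 6. Nanog ranked 956 and Esrrb 1178, and at Esrrb, which encodes an orphan nuclear receptor, DMSO was 3.93-fold higher than SB (adjusted p = 0.002449, exact test). Among receptors and Smads the sole window lay at the start of Tgfbr1, with 10 Activin ChIP tags and 1 input tag.

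Tags of bound fragments fall on the plus strand before a site and on the minus strand after it. In the strongest 500 windows, 73.9% of the plus-strand ChIP tags within 300 bp lay before the listed position and 72.9% of the minus-strand tags after it. In the input the shares were 45.2% and 43.6%. In windows ranked beyond 2000 they were 70.4% and 69.9% in the ChIP and 60.4% and 59.5% in the input. The input thus leaned the same way as the ChIP in the weakest class and not in the strongest. The ranking used these same input tags, so the difference between the classes is a description and was not tested. The listed position was chosen on these ChIP tags, which by itself gives the ChIP such a pattern. Repeated tags, those beyond the first at a position and strand, made up 29.8% of the ChIP tags in the strongest 100 windows, 20.9% in the next 400 and 63.4% in the lowest class, where the input had 34.4%.

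**Figure D4:**
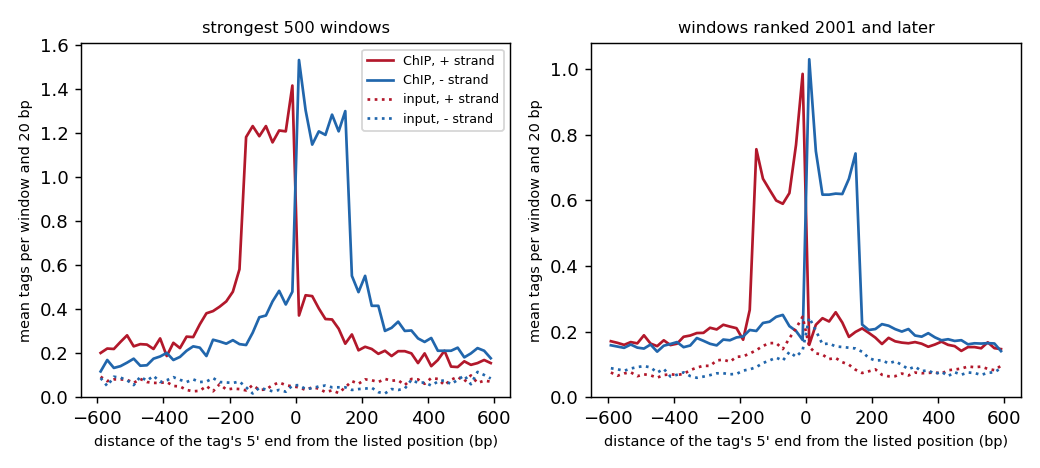
Mean tags per window and 20 bp against the distance of the tag's 5′ end from the listed position, on the plus and minus strand, in the Activin ChIP (solid) and input (dotted), for the strongest 500 windows and for those ranked beyond 2000. In the strongest 500 the ChIP reaches 1.42 plus-strand tags just before and 1.53 minus-strand tags just after the position and the input stays at or below 0.116, while in the lower class the input has a low peak of its own, at up to 0.246.

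The strongest windows were placed by the GENCODE annotation of the same assembly. Within 1 kb of a protein-coding start site lay 25 of the strongest 100, 58 of the next 400, 194 of the next 1500 and 632 of the last 3094. The share was 16.6% (95% interval 13.4 to 20.2) in the strongest 500, beside 2.31% of all genome windows, and it did not fall steadily with rank, being 20.4% in the lowest class. Introns held 32.6% of the strongest 500 (34.7% of genome windows), exons 10.2% (2.49%), the 10 kb around genes 18.2% (9.42%) and the rest 22.4% (51.1%). Of all genome windows at start sites, 3.10% were at least 4-fold over input, close to the 3.20% of the whole genome.

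Start-site windows and the others were read separately. Of the 25 start-site windows in the strongest 100, 24 passed over input in DMSO and 22 in SB, and 1 was higher in DMSO than in SB. Of the other 75, 58 passed in DMSO, 26 in SB, and 26 were higher in DMSO. The median SB ratios were 11.3 and 2.51, and the median DMSO ratios 10.5 and 6.54. Histone genes held 17 of the 25 start-site windows, with medians of 13.7 with DMSO and 12.5 with SB. In the other 8, a split made after seeing the data, the medians were 6.92 and 4.35. In the strongest 500 windows, start sites made up 5.36% (1.12 to 14.9) of those higher in DMSO and 17.7% (14.2 to 21.6) of those not called, while introns made up 42.9% (29.7 to 56.8) and 31.5% (27.2 to 36.1).

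Of the 8 motifs searched, the Foxh1 motif AATCCACA was more frequent in each stronger class than in the next. It lay within 50 bp of the position in 14 of the strongest 100 windows, 25 of the next 400, 42 of the next 1500 and 43 of the last 3094. These are shares of 14.0% (7.87 to 22.4), 6.25% (4.08 to 9.09), 2.80% (2.03 to 3.77) and 1.39% (1.01 to 1.87), beside 0.445% of genome windows. CAGAC was found in 37.0% (27.6 to 47.2), 28.5% (24.1 to 33.2), 28.3% (26.0 to 30.6) and 29.1% (27.5 to 30.7), beside 18.5%, so that it was above the genome share in every class but changed little below the strongest 100. Its core CAGA was in 75.4% of the strongest 500 and 71.1% of genome windows. The intervals treat windows as independent draws, and neighbouring windows are not.

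**Figure D5:**
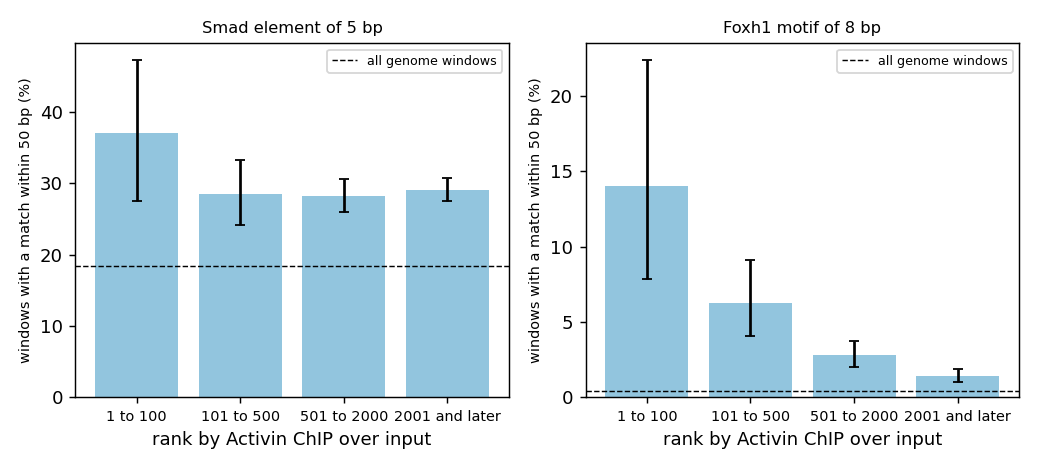
Share of windows with a match within 50 bp of the listed position, for the Smad element CAGAC (left) and the Foxh1 motif (right), by class of rank; bars are percent of windows, error bars exact binomial 95% intervals, and the dashed line is the share of all genome windows. The Foxh1 share falls from 14.0% to 1.39%, and the CAGAC share lies at 28.3% to 29.1% in the lower 3 classes.

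The other motifs were rarer or flat. The Smad palindrome GTCTAGAC was in 6 of the strongest 500 windows or 1.20% (0.442 to 2.59), beside 0.0736% of genome windows. Named only by the nearest coding gene, those 6 were Pgpep1, Pmepa1, Rgs7bp, Clvs1, Cdh20 and Ldlrad4. The window lay 1.395 Mb from Cdh20, 159 kb from Clvs1, 58.5 kb from Pmepa1 and 35.3 kb from Rgs7bp. The Pmepa1 window with the palindrome ranked 241 and is not the intronic one at rank 111. The octamer ATGCAAAT, bound by Oct factors, was in 2.20% (1.10 to 3.90) and 0.848% of genome windows, and the AP-1 motif TGANTCA in 2.20% and 2.97%. The GC box GGGCGG was in 3.00% and 1.01%, and the E-box CACGTG in 1.00% and 0.970%. A match is a description of the letters and not a bound site.

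The Foxh1 motif was also more frequent in the windows that were higher in DMSO than in SB, a comparison of libraries that the ranking did not use. Of the 56 such windows in the strongest 500, 19 held it, or 33.9% (21.8 to 47.8), beside 4.54% (2.79 to 6.92) of the 441 that were not called. CAGAC was in 53.6% (39.7 to 67.0) and 27.2% (23.1 to 31.6). A window with few tags cannot pass the test, so the shares were read again in windows with at least 40 DMSO and SB ChIP tags together, a limit set after the data were seen. There the Foxh1 motif was in 18 of 39 windows higher in DMSO, 46.2% (30.1 to 62.8), and in 2 of 113 not called, 1.77% (0.215 to 6.25). Without the histone windows the latter was 1 of 74. CAGAC was in 59.0% (42.1 to 74.4) of the first and 15.9% (9.72 to 24.0) of the second, or 20.3% (11.8 to 31.2) without the histone windows.

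The 39 windows of the strongest 500 with the Foxh1 motif had a median of 49 Activin ChIP tags, beside 18 in the 461 without it. Their median ratios were 12.1 with Activin, 8.10 with DMSO and 2.19 with SB, and 10.3, 3.68 and 2.26 in the others. DMSO passed over input in 31 of 39 and SB in 7, beside 247 and 146 of the 461 without the motif. A window with more tags passes the test more easily. Of the 39 windows, 19 also held CAGAC, and 11 of those were higher in DMSO. Of all 151 windows of the strongest 500 with CAGAC, 30 were. Besides the Lefty and Ski windows printed above, more windows with the motif were higher in DMSO. Named by the nearest coding gene, they included Nodal, Epha2, Nphs1, Cd83, Pkdcc, Bcar3, Spats2l, Fam25c, Pgap1, Chd6, L1td1, Rab12, Irf2bp2 and Hoxb3. At Nphs1 (rank 56) the tags were 116 ChIP and 6 input with Activin, 77 and 7 with DMSO and 12 and 11 with SB. At Cd83, 216 kb from the window, they were 102 and 6, 85 and 1, and 11 and 4. At the Spats2l intron (rank 136) they were 49 and 3, 32 and 2, and 2 and 3. The motif was also at Hist1h3g, where SB was as high as DMSO, and beside Robo1 (rank 53), where 16 Activin ChIP tags stood beside 0 input tags and DMSO had 7 and 9.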

How the data were processed

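Chromatin was immunoprecipitated with an antibody to pSmad2, and the 6 libraries were sequenced on an Illumina Genome Analyzer. The authors deposited aligned tags of 35 bp and, for each treatment, a list of MACS peaks, each with its position and the count of its tags, called at a p of 1e-05 with tags extended to 200 bp. The aligner is not given in the sources used here. For mm9, the build that the labels and the paper name, the NCBIM37 sequence and GENCODE vM1 were used, and all tags had 5′ ends within the 20 chromosomes compared.

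Members, gene lists and motifs were chosen with earlier results of these data known. The 5′ end of each tag was moved 100 bp inward and counted within 250 bp of the position. Windows were named by the nearest protein-coding gene body. Those named are taken from the strongest 20, the list genes in the strongest 500, runs of at least 3 windows, and windows with the Foxh1 motif or the Smad palindrome, the last chosen after their values were seen. Some list genes with lower ranks, the windows higher in SB and Eif2c1 are named too, also with their values seen. Binomial tests and Clopper-Pearson intervals used scipy 1.17.1 under Python 3.11.15, and were tested on simulated data. A 0 allows up to 3 tags. Folds given as "at least" use this floor and take the ChIP count as exact, so the lower limit of the interval can be smaller. Intervals and floors cover counting error only. Results at some sites are not reported here.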

Additional observations from a re-analysis of the deposited data

Results flagged for a closer look

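The response of the strongest 500 Activin windows differed between the DMSO and SB ChIP libraries, by an exact binomial test of the difference itself, in 56 windows with more tags in DMSO and in 3 with more tags in SB. Over all 5094 listed windows the shares were 1.83% and 0.569%. With the library ratio measured by GC content the number with more tags in SB was 0. Each treatment has 1 library, and a difference between cultures was not tested.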

How the results depend on the processing

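The number of windows at least 4-fold over input was 1232 with 500 bp each side of the position and 358 with 5 tags added, and lay between 1855 and 2895 under the other settings. The median ratio was 4.31 with 100 bp and 3.10 with 500 bp each side, 2.41 with 5 tags and 4.14 with no tag added, 3.37 with the 3 input libraries together, 3.62 with all tags kept and 3.65 with scaling by tags outside the listed regions. Of the strongest 100 windows, 46 were kept with 100 bp and 49 with 500 bp each side, 41 with the 3 inputs together, 57 with 5 tags added, 59 with all tags kept, 63 with tags not moved and 65 when ranked by the lower limit of the interval. Under all 11 alternatives to the ranking 15 of the 100 were kept, among them Smad7, Lefty1 at rank 4, Lefty2, Tdgf1 and Radil, and Rpl31 fell to rank 603 with the 3 inputs together.

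At an adjusted p under 0.001, SB exceeded its input in 29 of the strongest 100 windows, and in the strongest 500 DMSO was higher than SB in 30 and SB higher in 0. The number higher in SB was also 0 with 100 bp each side and with the library ratio measured by GC content, 6 with 500 bp, 8 with 5 tags added and when ranked by the lower limit, and 39 with all tags kept. The number higher in DMSO lay between 43 and 71 under the other settings. Of the strongest 500, 10.8% lay within 500 bp and 35.8% within 5 kb of a start site, and 20.4% within 1 kb with 5 tags added. CAGAC was in 16.6% within 25 bp and in 52.6% within 100 bp. The Foxh1 share, added after seeing the data, lay between 5.20% and 10.0%, and the histone windows of the strongest 100 numbered between 11 and 25. The GC setting was also added after seeing the data. No paired analysis was possible because each treatment has 1 ChIP and 1 input library, and for the same reason no library could be left out. With about 2 tags per genome window, input counts limit every ratio.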
